A study of Homo sapiens with 12 samples.

Results

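The genes described are 33 members of the ATF4 program, the branch of the stress response that adjusts amino acid supply. They are rows of the raw count table, which has 50006, taken by symbol from a list that was drawn up with earlier results of these data known. Of the 33, 29 had enough counts to be tested, among 12030 genes tested in all. TK6, a human B lymphoblastoid cell line, is a standard host of mutagenicity assays. Its cells were incubated for 24 h with 3-methylcholanthrene (3-MCA in the labels), a polycyclic aromatic hydrocarbon carcinogen. Polyadenylated RNA was sequenced from 4 groups of 3 libraries: control cells at 0 µg/mL, then cells at 0.0004 µg/mL (called low), at 0.04 µg/mL (medium) and at 4 µg/mL (high). All groups share the same cell line and the same time, and the labels do not name a vehicle for the control.

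ATF4 is a transcription factor whose messenger RNA is translated better when the initiation factor eIF2 is phosphorylated, as happens on amino acid shortage, unfolded protein in the endoplasmic reticulum, haem shortage or mitochondrial stress. With partners of the C/EBP family it binds composite elements in target promoters and switches on amino acid synthesis, amino acid import, tRNA charging and its own feedback genes. Because the control lies at translation, the level of the ATF4 messenger RNA is not a measure of ATF4 protein, and its targets are the usual readout of the program in RNA data.

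Composite elements are the sequence feature by which these promoters are known, so examples are shown before the values. RefSeq promoter windows (GRCh38.p14, 250 bases before to 50 after a start) were found for 27 of the 33 members, in 45 windows. NUPR1, PSPH, SHMT2, ALDH1L2, PYCR1 and SLC7A11 were not matched. The letters TGATGNAA, read on both strands, stood in 8 of the 45 windows (17.8%), against 3.62% of all 35116 windows of that length. The 8 genes were ATF3, ASNS, SLC3A2, SLC7A1, JDP2, CHAC1, CEBPG and SLC1A5. The full cyclic AMP element TGACGTCA stood in 1 member window, that of PPP1R15A, and in 1.85% of all windows. Of the 8 windows 5 are shown as examples, and all 8 are exact matches of these letters. Capitals mark TGATGNAA, or in CHAC1 its reverse complement. The start is a RefSeq transcript start and need not be the outermost of the gene.
ASNS chr7:97872359-97872658 (- strand): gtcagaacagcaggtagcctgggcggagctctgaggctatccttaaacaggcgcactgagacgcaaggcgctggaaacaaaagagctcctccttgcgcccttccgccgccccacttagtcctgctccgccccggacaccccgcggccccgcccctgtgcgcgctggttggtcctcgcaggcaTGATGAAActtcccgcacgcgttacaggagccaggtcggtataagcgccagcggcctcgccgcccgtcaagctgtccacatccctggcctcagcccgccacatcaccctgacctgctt
CHAC1 chr15:40953221-40953520 (+ strand): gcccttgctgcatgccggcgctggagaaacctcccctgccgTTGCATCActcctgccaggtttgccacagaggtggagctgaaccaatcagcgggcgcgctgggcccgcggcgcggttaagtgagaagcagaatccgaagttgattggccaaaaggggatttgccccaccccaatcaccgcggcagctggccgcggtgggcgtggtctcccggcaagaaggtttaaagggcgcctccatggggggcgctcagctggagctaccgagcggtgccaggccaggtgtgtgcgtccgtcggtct
CEBPG chr19:33373863-33374162 (+ strand): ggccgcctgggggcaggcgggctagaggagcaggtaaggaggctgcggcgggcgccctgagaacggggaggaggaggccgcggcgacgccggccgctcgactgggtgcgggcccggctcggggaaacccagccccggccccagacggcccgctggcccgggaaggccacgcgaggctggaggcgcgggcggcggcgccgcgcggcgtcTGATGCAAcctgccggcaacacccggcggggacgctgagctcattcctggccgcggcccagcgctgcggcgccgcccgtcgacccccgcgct
SLC1A5 chr19:46784765-46785064 (- strand): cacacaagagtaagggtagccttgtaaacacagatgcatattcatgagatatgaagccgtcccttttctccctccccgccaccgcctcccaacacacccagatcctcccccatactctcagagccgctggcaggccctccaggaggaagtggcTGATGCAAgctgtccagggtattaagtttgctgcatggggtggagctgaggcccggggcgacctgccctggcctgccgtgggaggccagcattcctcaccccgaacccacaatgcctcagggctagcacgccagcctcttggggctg
SLC7A1 chr13:29595639-29595938 (- strand): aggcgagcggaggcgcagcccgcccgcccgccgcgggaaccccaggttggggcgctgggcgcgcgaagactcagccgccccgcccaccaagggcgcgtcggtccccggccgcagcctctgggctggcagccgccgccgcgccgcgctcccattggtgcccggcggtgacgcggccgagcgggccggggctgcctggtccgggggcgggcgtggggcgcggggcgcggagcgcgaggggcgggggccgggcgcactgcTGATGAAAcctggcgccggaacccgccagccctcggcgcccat

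Counted from the start, the first base of the match lay at position -68 in ASNS, -209 in CHAC1, -42 in CEBPG, -97 in SLC1A5 and 8 in SLC7A1. A match is a description of these letters and does not show that a factor binds there.

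The libraries held between 9163368 and 19841387 counts (median 10097837), and the floor of 3 counts stood for 0.151 to 0.327 CPM (a count scaled by the library total). The labels leave unsaid whether a group's libraries stem from separate cultures. The p-values therefore rest on a spread between libraries that may be technical. Libraries also differed in the share of counts on the mitochondrial 16S ribosomal RNA, which lay between 1.43% and 3.84% in control, 1.46% and 7.99% in low, 2.73% and 4.80% in medium, and 1.45% and 7.96% in high. B cell markers summed to 2070 to 2942 CPM, although HLA-DRA was at 0.211 CPM or less. That low value is no proof that HLA-DRA was silent, since reads can be lost in counting. T and NK cell markers summed to 7.45 to 15.5 CPM with 4 of 10 at 0 counts, myeloid markers to 11.2 to 17.8 CPM with 3 of 8 at 0, and erythroid and stromal markers to 2.198 to 6.28 CPM with 8 of 10 at 0.

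No member passed the test at any concentration. With edgeR's quasi-likelihood test and Benjamini-Hochberg adjustment over all genes, 0 of 29 members were called in low, in medium, in high, in the F test for any group and in the trend over the rank of concentration. The background was 0% of the 12030 genes in each of these comparisons. At an unadjusted p below 0.05, no member passed in low, where 2.82% of all genes did, and none in medium, where 1.98% did. The transporter gene SLC7A5 was the 1 member below that level in high, where 3.12% of all genes were, and in the trend, where 2.89% were. In the F test no member was below it, against 1.75% of all genes. DESeq2 called 0 members too, beside 4 of all genes in low (0.0165%), 9 in medium (0.0588%), 5 in high (0.0207%), 21 in its test for any group (0.166%) and 1 in the trend (0.00414%). With limma voom 0 members were called, beside 1 of all genes (0.00831%) in each of medium, high and the test for any group and 0% in low and the trend. The smallest adjusted p of any member came to 0.911 in low, 0.998 in medium and 0.809 in high (edgeR's quasi-likelihood test).

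The size of a change that these libraries leave room for differed between members. The 95% interval of the fold change stayed within a 2-fold change in both directions for 25 of 29 members in low (72.2% of all genes), 25 in medium (73.6%) and 24 in high (71.6%). The members with wider intervals were DDIT3, CHAC1, ASNS and PCK2, and in high also VLDLR. The median log2 fold change of the 29 members came to 0.0075 in low, -0.042 in medium and -0.039 in high, beside 0.0075, -0.0017 and 0.0036 over all genes tested. The median over members varied between libraries with an SD of 0.084.

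**Figure D1:**
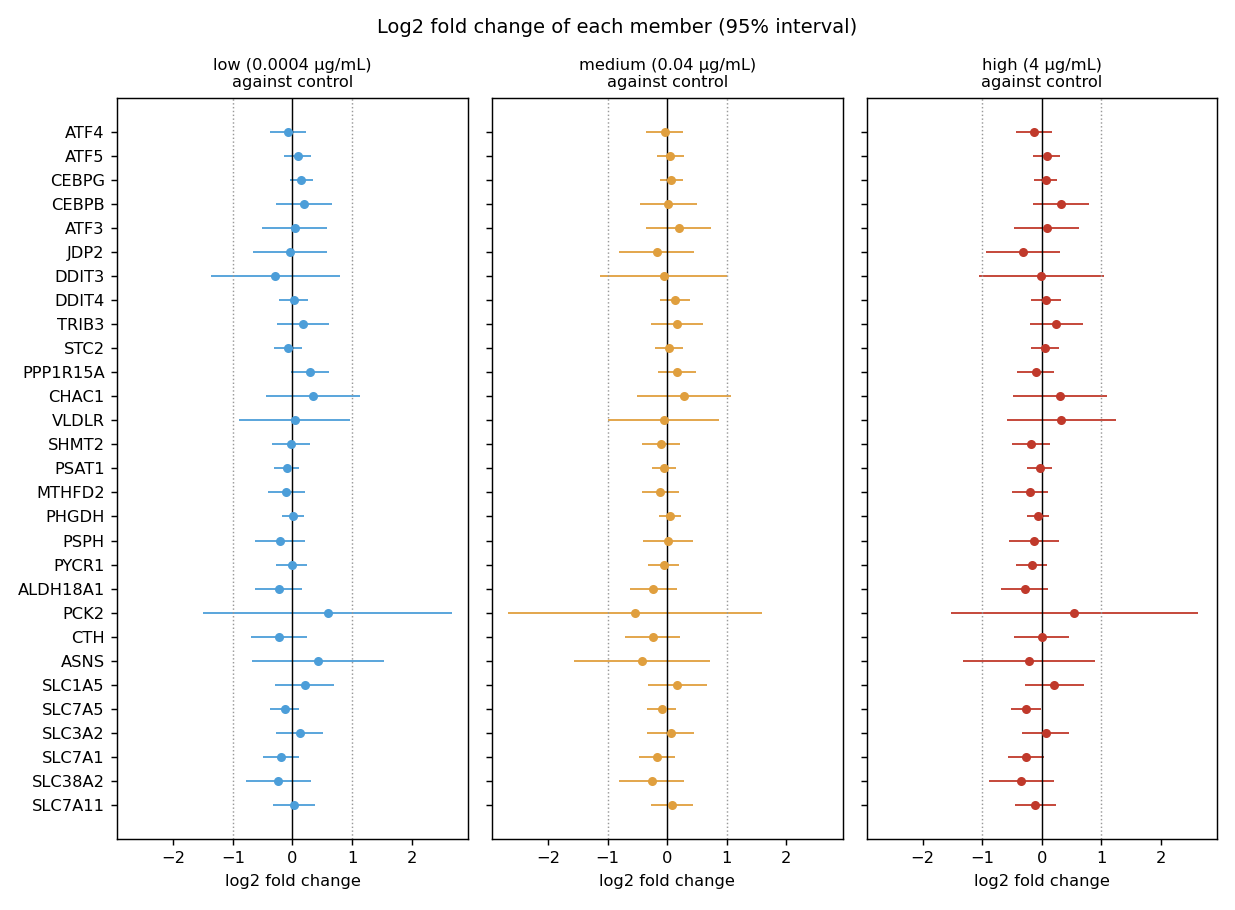
Log2 fold change of each tested member (points) with its 95% interval (lines), for low, medium and high against control, with members in rows and dotted lines at a 2-fold change. Every interval spans 0 except that of SLC7A5 in high, which runs from -0.51 to -0.014, and PCK2 has the widest intervals.

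Levels are compared between genes as CPM per kilobase of exon, a per-length scale, as means over the 12 libraries with their SD. On it ATF4 stood highest of all members at 165 ± 19.03, followed by SLC1A5 at 146 ± 27.5, SLC3A2 at 125 ± 18.2, SLC7A5 at 125 ± 14.1 and SHMT2 at 105 ± 13.3. The ranges of these neighbours over the libraries overlapped. The lowest tested members were SLC7A11 at 0.8797 ± 0.106, ASNS at 0.428 ± 0.187 and VLDLR at 0.207 ± 0.0629.

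**Figure D2:**
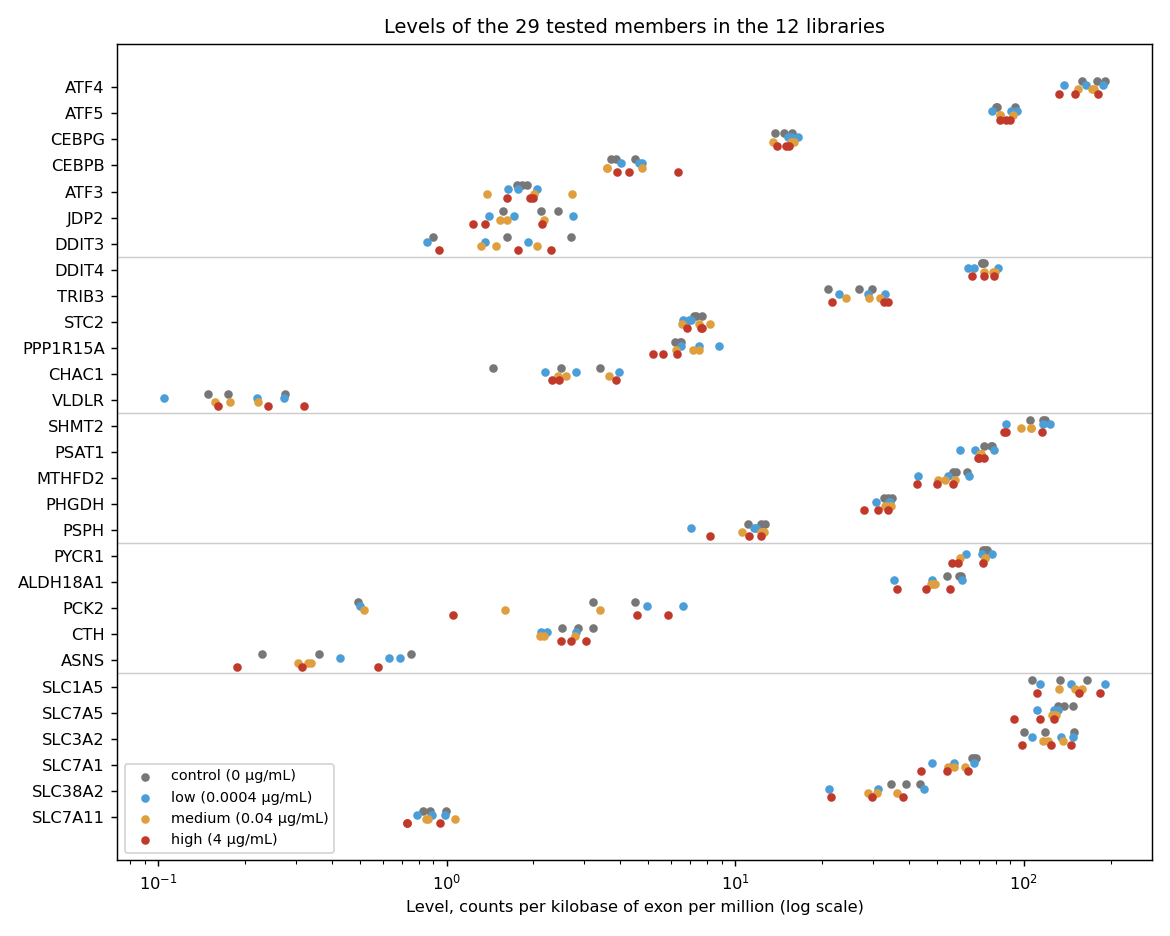
Level of the 29 tested members in each of the 12 libraries (points, coloured by concentration) as CPM per kilobase of exon on a log axis, grouped from top to bottom into transcription factors, feedback and stress effectors, serine, glycine and folate enzymes, other enzymes and transporters. The 4 concentrations overlap for nearly all members, and the distance between members far exceeds that between concentrations.

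Among the transcription factors of the program 7 of 8 were tested and none passed. Their median log2 fold change came to 0.036 in low, 0.020 in medium and 0.062 in high, and it turned to -0.0018 in low and -0.017 in medium without a composition factor. ATF4 (chromosome 22, 39520559 to 39522686), the central factor, was abundant. ATF4 had 322, 363 and 387 CPM in control, 333, 381 and 280.1 CPM in low, 313, 355 and 349 CPM in medium and 304, 368 and 268 CPM in high. The groups overlapped, and the lowest libraries were the third of high and the third of low. Its log2 fold changes were -0.072 ± 0.14 in low, -0.042 ± 0.14 in medium and -0.13 ± 0.14 in high (SE, edgeR adjusted p = 0.924, 0.998 and 0.809).

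DDIT3 (chromosome 12, 57516588 to 57520517), which encodes CHOP, a factor tied to death of stressed cells, was near the lower limit of what these libraries resolve. DDIT3 had 1.06, 3.17 and 1.905 CPM in control, 1.01, 1.596 and 2.26 CPM in low, 1.75, 2.43 and 1.55 CPM in medium and 2.71, 1.11 and 2.08 CPM in high. These rest on 10 to 40 counts a library, and control libraries spanned more than any treated group. The log2 fold changes of DDIT3 were -0.29 ± 0.49 in low, -0.059 ± 0.48 in medium and -0.011 ± 0.48 in high (SE, edgeR adjusted p = 0.922, 0.998 and 0.995). Other genes share 14.4% of its exon bases, namely MARS1 and an uncharacterised locus, so part of its count is uncertain if strand was not used in counting.

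CEBPB (chromosome 20, 50190583 to 50192690) and CEBPG (chromosome 19, 33373709 to 33382686) encode C/EBP proteins that pair with ATF4. CEBPB had 9.501, 8.13 and 7.84 CPM in control, 8.49, 9.79 and 10.01 CPM in low, 10.04, 7.58 and 7.58 CPM in medium and 9.01, 8.22 and 13.4 CPM in high. The third high library was above all others and the rest overlapped. Its log2 fold changes were 0.19 ± 0.22 in low, 0.020 ± 0.22 in medium and 0.32 ± 0.21 in high (SE, edgeR adjusted p = 0.911, 0.998 and 0.809), and CEBPB-AS1 shares 26.6% of its exon bases. CEBPG had 62.3, 66.6 and 57.9 CPM in control, 64.7, 70.1 and 66.2 CPM in low, 66.1, 67.8 and 57.4 CPM in medium and 65.1, 58.97 and 63.4 CPM in high. The groups overlapped, within a range of 1.22-fold over all libraries. CEBPG had log2 fold changes of 0.15 ± 0.087 in low, 0.070 ± 0.087 in medium and 0.062 ± 0.087 in high (SE, edgeR adjusted p = 0.911, 0.998 and 0.826).

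The other factors are given by group. ATF3, a stress-induced repressor and activator, averaged 5.28 ± 0.211 CPM in control, 5.27 ± 0.628 CPM in low, 5.9 ± 1.92 CPM in medium and 5.36 ± 0.589 CPM in high (SD, n = 3). ATF5, a relative of ATF4 that is likewise controlled at translation, averaged 234 ± 20.9 CPM in control, 242 ± 24.1 CPM in low, 237 ± 14.8 CPM in medium and 239 ± 9.45 CPM in high. JDP2, a repressor of the AP-1 family, averaged 18.6 ± 3.99 CPM in control, 17.7 ± 6.32 CPM in low, 16.1 ± 3.17 CPM in medium and 14.3 ± 4.42 CPM in high. For all of them the groups overlapped. NUPR1, a small stress-induced chromatin protein, had 4 counts in all 12 libraries, at most 2 in any one, and was not tested.

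The feedback and stress effectors had a median log2 fold change of 0.11 in low, 0.15 in medium and 0.16 in high. In each concentration 5 of the 6 lay above control (4 of 6 in low and in high without a composition factor), and none passed. Of all 12030 genes, 6177 were above it at the low concentration, 5984 at the medium one and 6092 at the high one. The effector on the other side changed: STC2 at the low concentration (-0.073), VLDLR at medium (-0.060) and PPP1R15A at high (-0.10). These counts rest on the same control libraries, so they are not independent. PPP1R15A (chromosome 19, 48872421 to 48876058) encodes GADD34, which directs removal of the phosphate from eIF2 and so ends the response. PPP1R15A had 15.3, 14.6 and 15.1 CPM in control, 15.3, 20.6 and 17.7 CPM in low, 14.6, 17.7 and 16.8 CPM in medium and 12.2, 14.8 and 13.2 CPM in high. The high libraries reached lower than control and the low libraries higher, with overlap in each case. Its log2 fold changes were 0.29 ± 0.14 in low, 0.16 ± 0.14 in medium and -0.10 ± 0.14 in high (SE, edgeR adjusted p = 0.911, 0.998 and 0.826).

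TRIB3 (chromosome 20, 380760 to 397559) encodes a pseudokinase that restrains ATF4 and CHOP. TRIB3 had 82.4, 74.3 and 57.7 CPM in control, 79.5, 63.2 and 91.5 CPM in low, 87.5, 66.8 and 80.3 CPM in medium and 90.6, 59.9 and 93.7 CPM in high. Each treated group reached higher than control and also down into its range. TRIB3 had log2 fold changes of 0.17 ± 0.20 in low, 0.17 ± 0.20 in medium and 0.25 ± 0.20 in high (SE, edgeR adjusted p = 0.911, 0.998 and 0.809). CHAC1 (chromosome 15, 40953471 to 40956512) encodes an enzyme that breaks down glutathione. CHAC1 had 5.17, 3.801 and 2.198 CPM in control, 3.33, 4.26 and 6.03 CPM in low, 5.57, 3.94 and 3.69 CPM in medium and 5.896, 3.53 and 3.73 CPM in high. With 30 to 87 counts a library the groups overlapped. CHAC1 had log2 fold changes of 0.35 ± 0.36 in low, 0.29 ± 0.36 in medium and 0.30 ± 0.36 in high (SE, edgeR adjusted p = 0.911, 0.998 and 0.811).

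DDIT4 (chromosome 10, 72273924 to 72276036) encodes REDD1, an inhibitor of the growth kinase complex mTORC1. DDIT4 had 125, 125 and 127 CPM in control, 118, 111 and 142 CPM in low, 136, 128 and 139 CPM in medium and 127, 115 and 138 CPM in high. All 3 medium libraries lay above the 3 control libraries, which were close together, while low and high spread to both sides. Its log2 fold changes were 0.018 ± 0.11 in low, 0.13 ± 0.11 in medium and 0.069 ± 0.11 in high (SE, edgeR adjusted p = 0.979, 0.998 and 0.847). STC2, a secreted glycoprotein, averaged 31.5 ± 1.13 CPM in control, 29.1 ± 0.971 CPM in low, 31.5 ± 3.59 CPM in medium and 31.3 ± 2.12 CPM in high (SD, n = 3). VLDLR, a lipoprotein receptor, averaged 1.84 ± 0.613 CPM in control, 1.84 ± 0.794 CPM in low, 1.71 ± 0.302 CPM in medium and 2.22 ± 0.7302 CPM in high.

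The enzymes of serine, glycine and mitochondrial folate metabolism had a median log2 fold change of -0.099 in low, -0.059 in medium and -0.13 in high. All 5 tested lay below control in high, where 5938 of all 12030 genes did, and none passed. DESeq2 size factors and no composition factor gave the same count. The latter moves the median of all genes down in high, so it could not be expected to raise these values. PHGDH (chromosome 1, 119711934 to 119744215) catalyses the first step of serine synthesis. PHGDH had 204, 197 and 191 CPM in control, 198, 201 and 179.6 CPM in low, 192, 202 and 199 CPM in medium and 182, 197 and 162 CPM in high. The groups overlapped, within a range of 1.25-fold over all libraries. Its log2 fold changes were 0.0075 ± 0.085 in low, 0.041 ± 0.085 in medium and -0.069 ± 0.084 in high (SE, edgeR adjusted p = 0.989, 0.998 and 0.814).

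PSAT1 (chromosome 9, 78297125 to 78330093) is the aminotransferase of the next step. PSAT1 had 161, 171 and 169.6 CPM in control, 149.7, 174 and 133 CPM in low, 157, 157 and 156 CPM in medium and 154, 161 and 155 CPM in high. The 3 medium libraries lay within a narrow band below the control libraries. PSAT1 had log2 fold changes of -0.10 ± 0.093 in low, -0.059 ± 0.092 in medium and -0.039 ± 0.092 in high (SE, edgeR adjusted p = 0.911, 0.998 and 0.898). MTHFD2 (chromosome 2, 74198615 to 74217565) is a mitochondrial folate enzyme. MTHFD2 had 263, 255 and 285 CPM in control, 247, 291 and 194 CPM in low, 227, 259.7 and 239.7 CPM in medium and 225, 257 and 192 CPM in high. The third libraries of low and high were lowest, and all groups overlapped. MTHFD2 had log2 fold changes of -0.10 ± 0.14 in low, -0.11 ± 0.14 in medium and -0.20 ± 0.14 in high (SE, edgeR adjusted p = 0.913, 0.998 and 0.809), and SLC4A5 shares 29.4% of its exon bases.

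PSPH, the phosphatase that completes serine synthesis, averaged 45.4 ± 3.05 CPM in control, 38.4 ± 10.2 CPM in low, 44.6 ± 4.17 CPM in medium and 39.8 ± 8.01 CPM in high (SD, n = 3). SHMT2, which turns serine into glycine in mitochondria, averaged 299 ± 18.4 CPM in control, 286 ± 50.9 CPM in low, 272 ± 11.95 CPM in medium and 253 ± 44.1 CPM in high. ALDH1L2, a mitochondrial folate dehydrogenase, had 24 counts in all libraries and was not tested.

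The other amino acid and carbon enzymes had a median log2 fold change of -0.015 in low, -0.24 in medium and -0.17 in high, and none of the 5 tested passed. ASNS (chromosome 7, 97851677 to 97928441), asparagine synthetase, is the textbook target of ATF4. ASNS had 2.43, 0.739 and 1.17 CPM in control, 2.22, 1.38 and 2.04 CPM in low, 1.09, 0.985 and 1.07 CPM in medium and 1.02, 1.86 and 0.608 CPM in high. These rest on 7 to 37 counts a library, and the groups overlapped. ASNS had log2 fold changes of 0.43 ± 0.51 in low, -0.42 ± 0.52 in medium and -0.22 ± 0.51 in high (SE, edgeR adjusted p = 0.911, 0.998 and 0.895). The read-through gene CZ1P-ASNS shares 69.5% of its exon bases, so the level of ASNS in this table is uncertain.

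PYCR1 (chromosome 17, 81932391 to 81937300) and ALDH18A1 (chromosome 10, 95605941 to 95656711) act in proline synthesis. PYCR1 had 169, 164 and 167 CPM in control, 163, 176 and 144 CPM in low, 137, 167 and 166 CPM in medium and 135, 164 and 128 CPM in high. The groups overlapped, with the first and the third of the high libraries lowest. PYCR1 had log2 fold changes of -0.015 ± 0.12 in low, -0.056 ± 0.12 in medium and -0.17 ± 0.12 in high (SE, edgeR adjusted p = 0.984, 0.998 and 0.809). ALDH18A1 had 198, 222 and 219 CPM in control, 177, 224 and 130.1 CPM in low, 177, 181 and 174 CPM in medium and 167, 204 and 133 CPM in high. The medium libraries lay below all control libraries, while low and high reached from far below control up to the control level. ALDH18A1 had log2 fold changes of -0.23 ± 0.18 in low, -0.23 ± 0.18 in medium and -0.29 ± 0.18 in high (SE, edgeR adjusted p = 0.911, 0.998 and 0.809).

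CTH (chromosome 1, 70411268 to 70439851) makes cysteine from cystathionine. CTH had 5.595, 7.18 and 6.37 CPM in control, 4.95, 6.28 and 4.74 CPM in low, 4.69, 4.85 and 6.22 CPM in medium and 6.03, 6.75 and 5.56 CPM in high. The groups overlapped. CTH had log2 fold changes of -0.23 ± 0.21 in low, -0.24 ± 0.21 in medium and -0.0039 ± 0.21 in high (SE, edgeR adjusted p = 0.911, 0.998 and 0.996). CBS, the enzyme of the step before it, was at 0 counts throughout, below the floor of 0.151 to 0.327 CPM, and this is no proof that the gene was silent, since reads can be lost in counting.

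PCK2, the mitochondrial enzyme that makes phosphoenolpyruvate, varied more than any other member. PCK2 had 14.5, 1.58 and 10.3 CPM in control, 1.62, 21.2 and 15.9 CPM in low, 5.13, 1.67 and 10.97 CPM in medium and 3.39, 14.7 and 18.8 CPM in high. High and low libraries occurred in every group, over a range of 13.4-fold. Its SD within groups, 1.49 on the log2 scale, was at or above that of 99.9% of all 50006 rows of the count table, untested ones included. Among tested genes with counts in every library, its range was at or above that of 96.2%. PCK2 has a copy entry on a patch contig of the table, which held 2 counts over all libraries against 1396 for PCK2. Other genes with entries on that contig also varied widely between libraries, among them, chosen after their values were seen, DCAF11 14.9-fold, IPO4 18.0-fold, REC8 20.4-fold, PSME1 83.3-fold and PSME2 154-fold. Of these, DCAF11 and REC8 had 0 counts on the copy, IPO4 and PSME1 2 each and PSME2 14. How reads that align to both entries were counted is not given, and the part of the copy in the spread of PCK2 was not tested.

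The amino acid transporters had a median log2 fold change of -0.054 in low, -0.014 in medium and -0.18 in high, and none of the 6 tested passed. SLC7A5 (chromosome 16, 87830023 to 87869507) is the light chain of the importer of large neutral amino acids, and SLC3A2 encodes its heavy chain. SLC7A5 had 674, 598 and 626 CPM in control, 598, 582 and 508 CPM in low, 575, 591 and 573 CPM in medium and 519, 582 and 420.1 CPM in high. On this scale all medium and all high libraries lay below the 3 control libraries, though not with TMM scaling, and low reached up to the lowest control. The log2 fold changes of SLC7A5 were -0.13 ± 0.11 in low, -0.091 ± 0.11 in medium and -0.26 ± 0.11 in high (SE, edgeR adjusted p = 0.911, 0.998 and 0.809). In high its unadjusted p was 0.040, and it did not pass after adjustment. That unadjusted p was 0.05 or more in 9 of the 12 fits that left out 1 library, over a span of 0.0039 to 0.186 (edgeR). It was 0.077 without a filter, 0.102 with the high and control libraries alone, and 0.133 without the 2 libraries highest in 16S.

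SLC7A1 (chromosome 13, 29509414 to 29595688) imports arginine and lysine. SLC7A1 had 581, 598 and 589.8 CPM in control, 503, 587 and 423 CPM in low, 479.7, 549 and 501 CPM in medium and 474, 559.5 and 385 CPM in high. On this scale all medium and all high libraries lay below control, with TMM scaling those of medium alone, and the second low library lay within it. SLC7A1 had log2 fold changes of -0.19 ± 0.14 in low, -0.17 ± 0.14 in medium and -0.26 ± 0.14 in high (SE, edgeR adjusted p = 0.911, 0.998 and 0.809). SLC7A11 (chromosome 4, 138164097 to 138312671), the cystine importer that feeds glutathione synthesis, was among the lowest members per length. That scale divides by all 16031 exon bases of the gene, while the transcript used for its GC content has 9645. SLC7A11 had 13.3, 15.9 and 14.1 CPM in control, 12.6, 15.9 and 14.3 CPM in low, 13.9, 17.1 and 13.6 CPM in medium and 11.7, 15.2 and 11.7 CPM in high. The groups overlapped. SLC7A11 had log2 fold changes of 0.022 ± 0.16 in low, 0.077 ± 0.16 in medium and -0.11 ± 0.16 in high (SE, edgeR adjusted p = 0.982, 0.998 and 0.834), and SLC7A11-AS1 shares 15.2% of its exon bases.

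SLC3A2 averaged 339 ± 69.2 CPM in control, 358 ± 58.5 CPM in low, 344 ± 29.5 CPM in medium and 339.7 ± 66.01 CPM in high (SD, n = 3). SLC1A5, the glutamine transporter, averaged 427 ± 92.2 CPM in control, 476 ± 123 CPM in low, 466 ± 43.5 CPM in medium and 474 ± 115 CPM in high. SLC38A2, which also imports glutamine, averaged 188 ± 21.6 CPM in control, 156 ± 57.8 CPM in low, 154 ± 18.3 CPM in medium and 143 ± 40.2 CPM in high. SLC6A9, a glycine transporter, had 6 counts, all in the third low library, and was not tested.

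**Figure D3:**
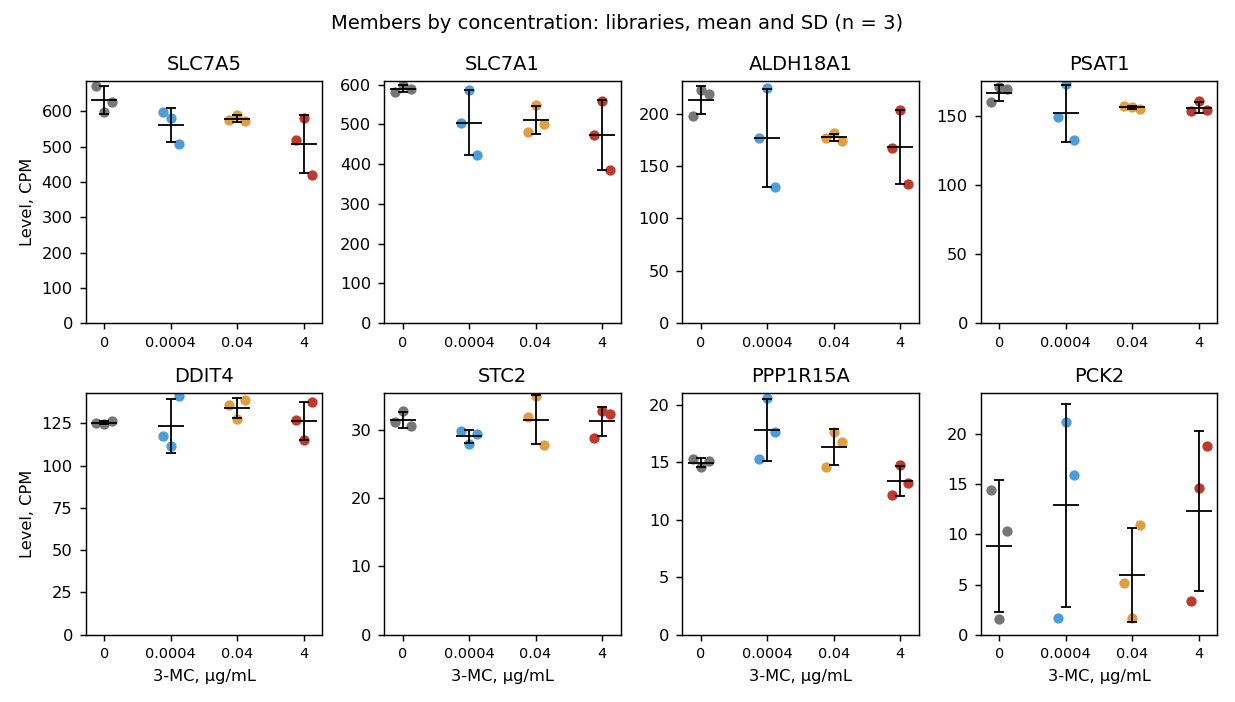
CPM of 8 members at 0, 0.0004, 0.04 and 4 µg/mL, with 3 libraries each (points), their mean (long bar) and SD (whiskers), on axes that start at 0. SLC7A5 and SLC7A1 lie below control in all medium and high libraries on this scale, which with TMM scaling holds for SLC7A1 in medium alone. DDIT4 lies above control in medium on this scale, and PCK2 spreads widely in every group.

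Whether libraries of a concentration all fell on one side of control depended on the scaling. On CPM of library totals, in low no member lay wholly above control (2.34% of all genes) and STC2 lay wholly below it (4.99%). In medium DDIT4 lay above (3.26%), and PSAT1, ALDH18A1, SLC7A5 and SLC7A1 lay below (8.30%). In high no member lay above (1.85%), and SLC7A5 and SLC7A1 lay below (8.28%). With edgeR's TMM scaling, which corrects for composition, PPP1R15A lay above control in low (3.53%) and no member below (3.52%). In medium none lay above (5.17%) and ALDH18A1 and SLC7A1 lay below (5.55%). In high none lay above (3.66%) or below (3.85%), so the separation of SLC7A5 and SLC7A1 in high was not kept on that scale.

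The summed share of the 33 members in all counts averaged 0.404% ± 0.0192 in high, 0.427% ± 0.00531 in medium and 0.427% ± 0.0217 in low, against 0.450% ± 0.0126 in control (SD, n = 3). The share on 16S ribosomal RNA differed alongside it, at 4.97% ± 3.29 in high, 3.55% ± 1.10 in medium and 4.28% ± 3.36 in low, against 2.48% ± 1.23 in control, and its part in the difference was not tested. All mitochondrial genes together held 20.5% ± 2.39 of counts in high, 18.0% ± 1.30 in medium and 18.4% ± 3.87 in low, against 15.7% ± 1.14 in control (SD, n = 3). The 3 high libraries, at 18.5% to 23.1%, lay above the 3 control libraries, at 14.6% to 16.9%, and the second high library did so with a 16S share of 1.45%. The part of this share in the members' difference was not tested either. In bulk RNA, fewer expressing cells and less RNA per cell cannot be told apart.

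Some members were ordered like the 16S share within groups. The library with the most 16S counts was set against the library with the least in each of the 4 groups, as a description with no test. CEBPB, TRIB3, CHAC1, SLC3A2 and SLC1A5 were higher in the library with more 16S in 4 of 4 groups, 5 of 29 members against 25.2% of all genes. ATF4, JDP2, PSPH, SHMT2, MTHFD2, ALDH18A1, CTH, SLC7A11, SLC7A1 and SLC38A2 were lower in 4 of 4, 10 of 29 against 24.8%. With TMM scaling the counts were 6 of 29 higher (26% of all genes) and 12 of 29 lower (25.7%).

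The ratio of the library with most 16S to that with least was 1.55 (control), 1.68 (low), 1.204 (medium) and 1.65 (high) for SLC1A5. It was 0.794 (control), 0.469 (low), 0.796 (medium) and 0.561 (high) for SLC38A2. These glutamine transporters were taken from the higher and the lower set, so their opposite order in every group follows from that choice. The 5 members that were higher had a median transcript GC content of 61.3%, between 57.4% and 66.2%, and the 10 that were lower one of 49.5%, between 35.4% and 57.0%. The 14 with neither order had a median of 52.0%, between 42.3% and 61.8%, SLC7A5 and PCK2 at 61.1% and 61.6% among them. With TMM scaling the 2 sets overlapped in GC content, at 57.4% to 66.2% for the 6 higher members (median 61.1%) and 35.4% to 61.8% for the 12 lower ones (median 50.6%). Over all genes with a value, the higher and lower sets on CPM of library totals had medians of 50.2% and 45.3%. What links the 16S share, GC content and these levels was not tested.

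**Figure D4:**
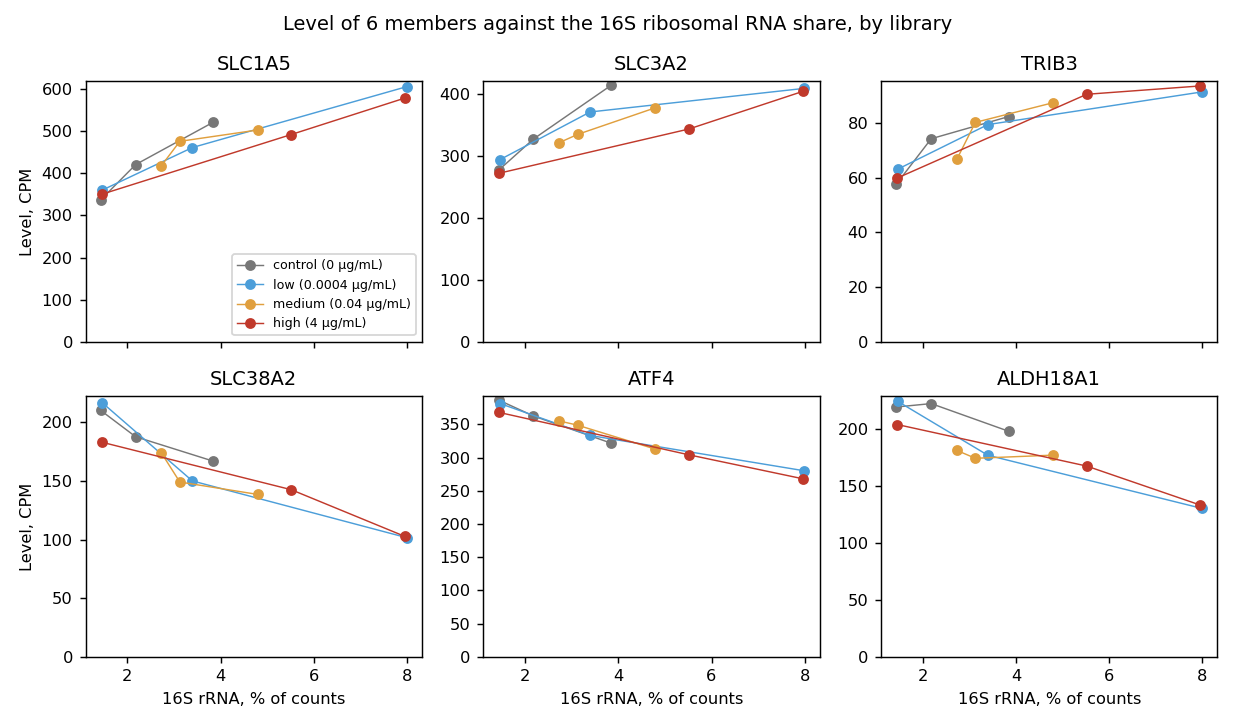
CPM of 6 members against the percentage of counts on 16S ribosomal RNA, 1 point per library, with the 3 libraries of each concentration joined by a line. SLC1A5, SLC3A2 and TRIB3 are higher in the library with the most 16S counts than in that with the least in every group, and SLC38A2, ATF4 and ALDH18A1 are lower. The 6 were taken from the members with the same order in every group, so this pattern follows from that choice.

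Genes around the program gave no calls either. Of the 18 genes of eIF2 signalling upstream of ATF4 all were tested and none was called in either direction. Their median log2 fold change came to 0.042 in low, -0.029 in medium and -0.058 in high. Of 22 other ATF4 targets 17 were tested, with medians of -0.041, -0.016 and -0.051 in low, medium and high. Of 12 further folate and serine enzymes 11 were tested, of 20 genes of mTORC1 nutrient sensing 19, and of 29 further bZIP factors that could pair with ATF4 22. None of these was called.

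In each list the 2 genes ranked first by the F test are named here as not passing. Among eIF2 genes they were EIF2B1, a subunit of the exchange factor of eIF2, with log2 0.23 ± 0.11 in high, and OMA1, a mitochondrial protease, with -0.15 ± 0.11. Among further targets XPOT, the tRNA exporter, had -0.19 ± 0.10 in high. The autophagy receptor gene SQSTM1 averaged 1.95 ± 0.879 CPM in control, 19.9 ± 30.6 CPM in low, 23.6 ± 3.79 CPM in medium and 7.90 ± 9.54 CPM in high (SD, n = 3). Its SD exceeded its mean in low and in high, while the 3 medium libraries were close together. Its log2 fold changes were 3.44 ± 1.25 in low, 3.65 ± 1.24 in medium and 2.14 ± 1.26 in high, with an unadjusted p of 0.0151 in medium, and it was not called (edgeR adjusted p = 0.911, 0.998 and 0.809). In the other lists they were ALDH1L1 and MTHFD1L, CASTOR2 and SESN3, and CREM and BATF3. CREM, a factor that answers cyclic AMP, had log2 0.32 ± 0.12 in low, 0.25 ± 0.12 in medium and 0.32 ± 0.12 in high (SE, edgeR adjusted p = 0.911, 0.998 and 0.809).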

How the data were processed

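Per the labels' protocols, total RNA of TK6 cells was isolated with an RNeasy Mini kit and made into libraries after mRNA capture. The genome build GRCh38.p14 and the tools HISAT2 2.2.1, featureCounts 2.0.6, fastp 0.23.4 and MultiQC 1.27 come from the submitters' processing notes. Strandedness, multi-mapping and other options were not given in the sources used here. Raw read counts per gene for 12 libraries were deposited by the authors, with CPM per library, which equalled count over library total within 5e-05 CPM. Of the counts from 1 to 10, 68.7% were even, so counts may not be independent fragments, and floors cover counting error only.

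The members and lists were chosen with earlier results of these data known. Genes were kept with filterByExpr, scaled with TMM and tested by quasi-likelihood in edgeR 4.0.16 under R 4.3.3. The 12 libraries entered a single model that left 8 residual degrees of freedom, with Benjamini-Hochberg adjustment over 12030 genes and a threshold of 0.05. CPM in the text is recomputed from counts. Exon lengths and overlaps came from RefSeq coordinates in the count table. Values in every library are given for 9 members fixed by name and for the 5 with the smallest p in each concentration and in the F test, 18 in all. PCK2 was added after its values were seen. Libraries of a group differed by a chi-square of 7.67 to 134 per degree of freedom over genes, so none was a duplicate. Alternatives were DESeq2 size factors, no composition factor, 2 other filters, DESeq2 1.42.0, limma 3.58.1 voom, a replicate block, a fit on the 2 groups of a comparison alone and the omission of each library in turn. Added after seeing the data was a fit without the 2 libraries highest in 16S ribosomal RNA.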

Additional observations from a re-analysis of the deposited data

How the results depend on the processing

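No member was called under any alternative, DESeq2 and limma voom included, and few genes of any kind were: at most 35 of 24263, without a filter in the test for any group. Over its 21 alternatives the median of the members ran from -0.0958 to -0.0018 in high, from -0.0751 to 0.0145 in medium, where it turned under 2, and from -0.0465 to 0.0256 in low, where it turned under 5. The SD between libraries of this median, 0.084, was larger than each median as reported, so no direction is read from them. The filter at 1 CPM in 3 libraries kept the same number of genes, 12030. Without a composition factor the median of all genes moved to -0.031 in low, -0.037 in medium and -0.053 in high. Among the members whose intervals passed a 2-fold change in at least 1 group, DDIT3, CHAC1, ASNS and VLDLR had at most 87 counts in any library. PCK2, with 15 to 291 counts, passed a 2-fold change in every comparison. CTH, with 43 to 134, and ATF3, with 44 to 112, stayed within it. Leaving out the second high library gave 7 of 29 members an unadjusted p below 0.05 in high (TRIB3, SHMT2, PYCR1, ALDH18A1, SLC7A5, SLC7A1 and SLC38A2), as it did 18.5% of all genes, with a smallest adjusted p of 0.267 (edgeR) for TRIB3.

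Many of the 1134 alternatives of log2 fold changes of named members could hardly turn a value. The 1 CPM filter kept the same number of genes, and leaving out a library outside the comparison moved values little. Of the 1134, 1085 kept their direction and 49 turned it, all of them for members that were not called, and the cause was not tested. Without the 2 libraries highest in 16S the values were 0.0712 for ASNS in high, 0.0207 for ATF4 in low, 0.0511 for CTH in high, -0.0054 for DDIT4 in high, -0.1110 for DDIT4 in low, 0.0256 for MTHFD2 in low and 0.0448 for PYCR1 in low. Without a composition factor they were -0.0166 for CEBPB in medium, -0.0235 for DDIT4 in low, -0.0313 for PHGDH in low and -0.0168 for SLC7A11 in low. With limma voom they were -0.0013 for CEBPB in medium, 0.0118 for CTH in high and 0.0773 for DDIT3 in medium. Without a filter they were 0.0010 for CTH in high and -0.0045 for PHGDH in low. With the replicate block they were 0.0008 for CTH in high and 0.0682 for DDIT3 in high, and 0 members were called. Same-numbered libraries had correlations of their deviations from -0.288 to 0.504, and 6 of 12 libraries were closest to their own number. These values do not settle whether the numbers pair the libraries, and the labels do not say. With each library left out in turn the values ran from -0.7585 to 0.3294 for ASNS in high, -0.7244 to 0.1286 for ASNS in medium, -0.1749 to 0.02 for ATF4 in low, -0.1261 to 0.0453 for ATF4 in medium, -0.1221 to 0.0997 for CEBPB in medium, -0.102 to 0.0796 for CTH in high, -0.324 to 0.4218 for DDIT3 in high, -0.625 to 0.1437 for DDIT3 in low, -0.3722 to 0.3722 for DDIT3 in medium, -0.0001 to 0.1223 for DDIT4 in high, -0.1119 to 0.0947 for DDIT4 in low, -0.2364 to 0.0248 for MTHFD2 in low, -0.0137 to 0.0388 for PHGDH in low, -0.0763 to 0.0439 for PYCR1 in low, -0.1142 to 0.0368 for PYCR1 in medium, -0.051 to 0.1072 for SLC7A11 in low and -0.0258 to 0.1456 for SLC7A11 in medium. Of the 54 values 17 turned in this way, 31 kept their direction but moved by over 1.5 times and 6 did neither. Among the 31 were CHAC1 in high (0.0409 to 0.5984), CEBPB in high (0.075 to 0.4466), TRIB3 in low (0.0245 to 0.313), ALDH18A1 in low (-0.4286 to -0.0683) and SLC7A5 in high (-0.3859 to -0.1454).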
